A study of Mus musculus with 4 samples.

Results

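The constitutive proteasome subunits are the genes whose symbol in the count files matches the proteasome series Psma, Psmb, Psmc, Psmd, Psme, Psmf or Psmg followed by a number, with the immunoproteasome subunits Psmb8, Psmb9 and Psmb10 left out and the activator subunits Psme1 and Psme2 kept in. This rule found 45 of 53465 listed genes, and 44 of them passed the filter on low counts that left 15766 genes for testing. The rule used symbols only and no measured value. RNA-Seq was performed on primary (1°) mouse oligodendroglial cells (OGCs) from forebrain at postnatal day 2 to 4, after shake-off, microglial depletion and 3 days of differentiation. Ctrl cells carried Zfp276 flox/flox alleles without Cre, and Zfp276cko cells carried the same alleles together with a Sox10::Cre transgene. Cre is thus active in cells of the oligodendroglial lineage, and the floxed alleles are shared by both groups. According to the paper, a tdTomato reporter allele with a floxed stop was also crossed in, to identify Zfp276cko newborns for culture. This reporter therefore marks the Zfp276cko group, and its part in the values was not tested. The mice had a mixed strain background, and differentiation was started by replacing mitogens with CNTF. There were 2 preparations per genotype, each pooled from 3 mice. Other cell types in the cultures keep the Zfp276 gene, and the paper also reports incomplete deletion from staining of postnatal spinal cord.

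The 26S proteasome degrades proteins that carry ubiquitin chains. Its 20S core is a barrel of alpha and beta rings, in which Psmb5, Psmb6 and Psmb7 encode the subunits with peptidase activity. The 19S regulatory particle recognizes, unfolds and feeds the substrate and consists of a base with ATPases and a lid, while separate activators such as PA28 open the core without ATP. Cells exposed to interferon make Psmb8, Psmb9 and Psmb10, which replace the catalytic subunits of the core, and more PA28 alpha and beta. Protein turnover by the proteasome accompanies the extensive protein and membrane synthesis of differentiating OLs.

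Counted reads came to between 21068322 and 21311469 in ctrl and between 25265366 and 26599809 in Zfp276cko libraries. Zfp276 had 1648 and 2230 normalized counts in ctrl against 490 and 503 in Zfp276cko replicates 1 and 2, so that 25.6% of the ctrl mean remained and the libraries matched their labels. A normalized count is a count divided by the effective size of its library and multiplied by the mean of these sizes. All 10 oligodendrocyte lineage markers were tested. Their summed level was 14966 and 19425 CPM (counts scaled to one common library total) in ctrl and 10248 and 10434 CPM in Zfp276cko cultures. This sum does not describe every marker. Of the 10 markers, 8 had lower values in the Zfp276cko pair without overlap, Olig2 among them. The other 2, Sox10 and Cldn11, overlapped between the genotypes, with log2 fold changes of −0.09 and 0.01. Ctrl replicate 1 stood apart by its fibroblast and vessel markers, 6 of 7 of which were tested and which summed to 242 CPM there against 9.76 CPM in ctrl replicate 2 and 12.8 to 14.4 CPM in Zfp276cko cultures. Cldn5 of this list was at 0 in all libraries. Replicates varied more in ctrl, with a biological coefficient of variation of 0.357, than in Zfp276cko, with 0.048.

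Most subunit genes of the proteasome differed little between the genotypes, while those of PA28 alpha and beta, Psme1 and Psme2, had log2 fold changes of 0.87 and 0.93. The 45 members summed to 4485 and 4984 CPM in ctrl and to 5101 and 4906 CPM in Zfp276cko replicates 1 and 2, and the genotypes overlapped. The median log2 fold change of Zfp276cko over ctrl was 0.07 over the 44 tested members and −0.0013 over all tested genes. The middle 50% of the members covered 0.14 on the log2 scale, and that of all tested genes covered 0.46. An absolute log2 fold change under 0.3 was found for 39 of 44 members and for 59.8% of all tested genes. These counts describe the fit and are not a test of the list. They were not matched for count level, and the median standard error was 0.11 for the members and 0.19 for all tested genes.

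Calls needed 3 things, namely a Benjamini-Hochberg adjusted p not above 0.05, a log2 fold change of 0.6 or more in size, and 20 or more normalized counts on average. The quasi-likelihood test of edgeR called 0 of 44 members higher and 0 lower, as it called 0% of all tested genes in either direction. With the unadjusted p in place of the adjusted one, 2 members passed as higher and 0 as lower, against 5.11% and 3.02% of all tested genes, and with p alone it was 3 and 1, against 8.33% and 7.3%. DESeq2 called 2 of the 43 members it gave an adjusted p for higher, Psme1 and Psme2, and 0 lower, with a background of 3.02% and 2.27%. For 12 members the Zfp276cko pair lay above the ctrl pair without overlap and for 6 it lay below, which is 27.3% and 13.6% of the members beside 26.8% and 23.7% of all tested genes. The share above was thus close to the background.

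For most members the data also limit how large a difference can be. The 95% interval of the log2 fold change lay wholly between −0.6 and 0.6 for 36 of 44 members and for 34.3% of all tested genes. The 8 exceptions were Psme1, Psme2, Psma8, Psmb5, Psmd9, Psmd10, Psmg1 and Psmg4. These intervals pool the spread of both genotypes and cover these libraries only. The members are counted with many reads, and the 41 members other than Psme1, Psme2, Psma8 and Psmb11 had ctrl means between 228 and 9088 normalized counts. The share over all tested genes was not matched for count level.

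**Figure D1:**
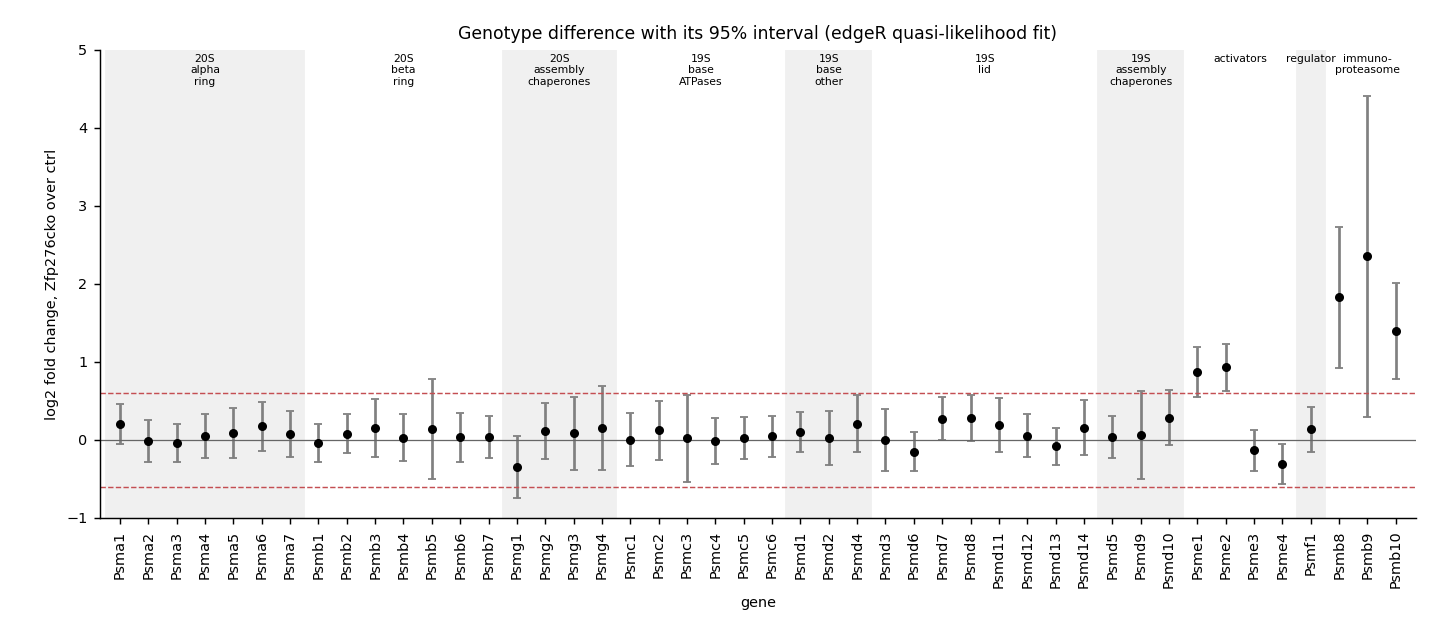
Log2 fold change of Zfp276cko over ctrl (vertical axis) with its 95% interval for 43 tested members and the 3 immunoproteasome subunits, ordered by role along the horizontal axis, with dashed lines at −0.6 and 0.6. Psma8, with at most 19 counts in a library, is left out, and the subunits of the core and of the regulatory particle lie near 0 while Psme1, Psme2 and the immunoproteasome subunits lie at 0.87 to 2.35.

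The PA28 activator genes were the members with the largest difference among those with more than 20 normalized counts. Psme1 and Psme2 encode the alpha and beta chains of a ring that caps the 20S core and widens its gate for peptides. They lie on chromosome 14 of mm10 on opposite strands, Psme1 from 55578123 to 55581529 on the plus and Psme2 from 55587441 to 55591113 on the minus strand, with 5.9 kb between them. Psme1 was counted at 1247 and 1057 (normalized) in the ctrl pair and at 2138 and 2073 in the Zfp276cko pair, in each case replicate 1 first. The Zfp276cko pair was thus higher without overlap, and the gap was wider than the difference between the replicates of either genotype. The Zfp276cko mean was 2106 ± 46.0 (SD, n = 2), and the ctrl mean was 1152 ± 134 (SD, n = 2). The log2 fold change was 0.87 (SE 0.12, 95% interval 0.55 to 1.19, adjusted p = 0.123 by the quasi-likelihood test of edgeR).

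Psme2 had 1660 and 1912 normalized counts in ctrl against 3314 and 3488 in Zfp276cko replicates 1 and 2, without overlap. Its log2 fold change was 0.93 (SE 0.11, 95% interval 0.63 to 1.23, adjusted p = 0.117 by the quasi-likelihood test of edgeR), or 1.90-fold. DESeq2 gave 0.85 for Psme1 (adjusted p = 0.000272) and 0.91 for Psme2 (adjusted p = 5.88e-06) and thereby changed both calls. Without ctrl replicate 1, edgeR gave 0.996 for Psme1 and 0.83 for Psme2, and without ctrl replicate 2 it gave 0.74 and 1.02. Each gene was called in these fits, with adjusted p-values between 2.05e-09 and 4.70e-07, where the spread comes from the Zfp276cko pair alone and the lone ctrl library is assumed to vary like it. Without either Zfp276cko library the adjusted p was 1.

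The partner chains kept similar proportions. The ratio of Psme1 to Psme2 counts was 0.751 and 0.553 in ctrl against 0.645 and 0.594 in Zfp276cko replicates 1 and 2, and the Zfp276cko values lay between those of the ctrl libraries. Psme2 has a copy with 1 exon, Psme2b, on chromosome 11 from 48945354 to 48946190. Of all windows of 101 bases, the read length, in the basic transcripts of Psme2, 40.5% occur unchanged in Psme2b, so that reads from there cannot be assigned to one gene and are missing from counts of unique reads. Psme2b, named after its values were seen, had 103 and 77.6 normalized counts in ctrl against 166 and 174 in Zfp276cko cultures, which gave 0.91 on the log2 scale (SE 0.25, adjusted p = 0.229 from edgeR). Psme1 shares 0.828% of its windows with another gene.

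The other activators had fold changes below 0. Psme3 encodes PA28 gamma, a nuclear relative of PA28 alpha and beta. It had 3838 and 3520 normalized counts in ctrl against 3341 and 3373 in Zfp276cko cultures, with both Zfp276cko libraries below both ctrl libraries. Its log2 fold change was −0.13 (95% interval −0.39 to 0.13, adjusted p = 0.565 from edgeR), so that an increase of the size of Psme1 lies outside the interval. Psme4 encodes PA200, a large activator of the 20S core, and had 3431 and 3223 normalized counts in ctrl against 2619 and 2763 in Zfp276cko cultures. It was the member with the lowest p in the negative direction (log2 fold change −0.31, SE 0.09, unadjusted p = 0.0278, adjusted p = 0.261 from edgeR), and DESeq2 did not call it (adjusted p = 0.278). Within a library, the ratio of Psme1 to Psme3 counts was 0.325 and 0.30 in ctrl against 0.640 and 0.615 in Zfp276cko cultures. The ratio of Psme2 to Psme3 was 0.432 and 0.543 in ctrl against 0.992 and 1.03 in Zfp276cko cultures. Psmf1, which encodes the proteasome regulator PI31, had 765 and 820 normalized counts in ctrl against 863 and 882 in Zfp276cko cultures (log2 fold change 0.14, adjusted p = 0.582 from edgeR).

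The catalytic subunits of the constitutive core were measured at overlapping levels. Psmb5 encodes the subunit with chymotrypsin-like activity, Psmb6 the one with caspase-like activity and Psmb7 the one with trypsin-like activity. Psmb6 had 3441 and 4005 normalized counts in ctrl against 3868 and 3746 in Zfp276cko cultures, a log2 fold change of 0.03 (95% interval −0.28 to 0.35). Psmb7 had 2980 and 3285 in ctrl against 3283 and 3129 in Zfp276cko cultures, also 0.03 (95% interval −0.24 to 0.30). For both genes the Zfp276cko libraries lay within the range of the ctrl libraries.

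Psmb5 was less certain because the ctrl libraries differed, with 794 and 1220 normalized counts against 1171 and 1049 in Zfp276cko cultures. Its log2 fold change of 0.14 (95% interval −0.50 to 0.78, adjusted p = 0.818 from edgeR) became −0.14 when ctrl replicate 1 was left out and 0.47 when ctrl replicate 2 was. Of its windows of 101 bases, 21.7% occur in transcripts of other genes. An increase of 0.6 on the log2 scale thus lay inside the interval of Psmb5, and a decrease of 0.6 lay outside it.

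The immunoproteasome counterparts of these subunits, which were left out of the rule, had their higher values in the Zfp276cko pair, without overlap. Psmb8 had 600 and 318 normalized counts in ctrl against 1700 and 1553 in Zfp276cko cultures, Psmb9 had 125 and 25.9 against 414 and 356, and Psmb10 had 500 and 335 against 1098 and 1101. Their log2 fold changes were 1.83, 2.35 and 1.40, and the adjusted p was 0.160, 0.281 and 0.137 by edgeR but 2.34e-05, 0.0158 and 5.57e-05 by DESeq2. These sizes rest on the ctrl libraries: leaving out ctrl replicate 1 gave 2.35 for Psmb8, 3.89 for Psmb9 and 1.71 for Psmb10, and leaving out ctrl replicate 2 gave 1.43, 1.61 and 1.12, with a call for each gene in both fits. Per kilobase of exon, Psmb8 made up 29.4% and 12.6% of the sum of Psmb8 and Psmb5 in ctrl, and 44.5% and 45.0% in Zfp276cko cultures. Psmb9 made up 2.09% and 0.380% of its sum with Psmb6 in ctrl, and 5.94% and 5.31% in Zfp276cko cultures. Psmb10 made up 12.9% and 8.28% of its sum with Psmb7 in ctrl, and 22.8% and 23.7% in Zfp276cko cultures. The constitutive subunit thus had the higher level in every library for all 3 pairs. With exons of all annotated transcripts instead of the basic set, the shares of Psmb8 were 16.7%, 6.49%, 27.9% and 28.3%. Those of Psmb10 were 25%, 17%, 40% and 41% in the same order of libraries. The order of the genotypes and the higher level of the constitutive subunit were common to both sets of exons. The sizes of the shares were not.

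In the same libraries, 20 of 20 genes of a list of interferon response genes, Tap1 and Nlrc5 among them, had their Zfp276cko values above both ctrl values. Among all tested genes this held for 26.8%. The list of interferon response genes was chosen with earlier results of these data known. The summed level of these 20 genes was 1295 and 472 CPM in ctrl and 5364 and 5247 CPM in Zfp276cko cultures. Ctrl replicate 2 was above ctrl replicate 1 for 1 of these 20 genes, for 0 of the 3 immunoproteasome subunits and for Psme2, but not for Psme1. The 6 microglia markers, all tested, summed to 784 and 458 CPM in ctrl and to 613 and 615 CPM in Zfp276cko cultures. This sum was set by Csf1r in ctrl replicate 1, with 11409 normalized counts there against 1850 in ctrl replicate 2 and 3085 and 3016 in Zfp276cko cultures. Without Csf1r, a choice made after its values were seen, the other 5 markers summed to 301 and 380 CPM in ctrl and to 482 and 487 CPM in Zfp276cko cultures, without overlap. Of these, Ptprc, a marker of all leukocytes, had 3018 and 3101 normalized counts in ctrl against 5092 and 5264 in Zfp276cko cultures, and DESeq2 called it higher (log2 fold change 0.74, adjusted p = 1.08e-05). Cx3cr1 also lay above both ctrl libraries, with 2290 and 2369 in ctrl against 3095 and 2966 in Zfp276cko cultures, and Aif1, P2ry12 and Tmem119 overlapped. The interferon response genes and 2 of the 6 microglia markers were thus higher in the same libraries as Psme1 and Psme2, and the part of these genes in the difference of Psme1 and Psme2 was not tested. In bulk RNA, a different number of cells of one type and a different amount of RNA per cell cannot be told apart.

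**Figure D2:**
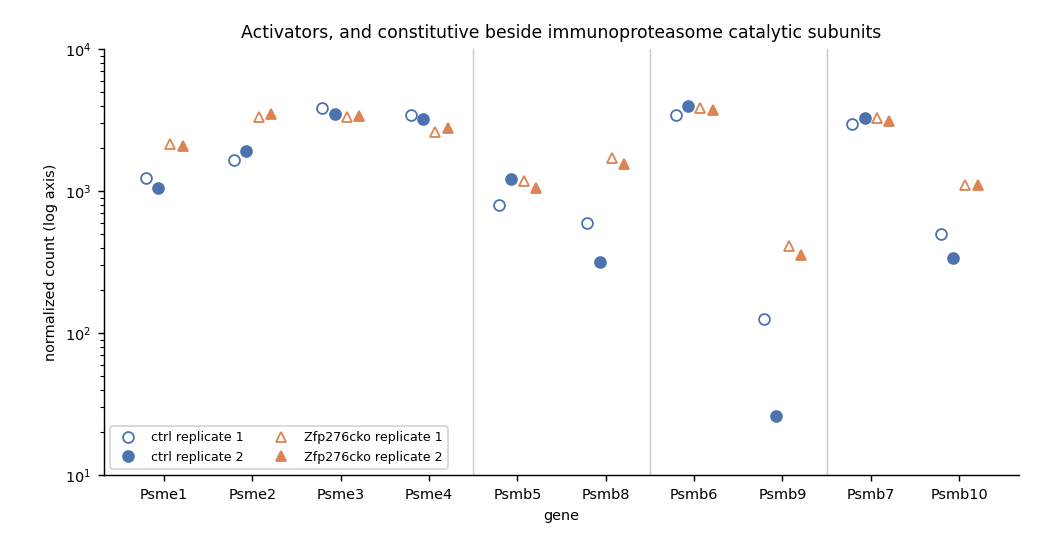
Normalized counts on a log axis for the activators Psme1 to Psme4 and for each catalytic subunit of the constitutive core beside its immunoproteasome counterpart, 1 point per library. Psme1, Psme2, Psmb8, Psmb9 and Psmb10 show both Zfp276cko libraries (triangles) above both ctrl libraries (circles), while Psmb5, Psmb6 and Psmb7 overlap.

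To show the sequence from which the differing and the overlapping members are transcribed, promoters were read from the RefSeq promoter table (build GRCm38.p6), which holds 37 of the 45 members. The stretches given here are the longest parts of the 250 bases before a start that overlap no annotated exon of the gene, read 5′ to 3′ on the strand of the gene. For Psme1 this is chr14:55578249-55578359 on the plus strand, which lies between exons of a transcript with a start further upstream, and for Psme2 it is chr14:55591114-55591351 on the minus strand. For the catalytic subunits it is chr14:54618023-54618245 on the minus strand for Psmb5 and chr11:70525107-70525356 on the plus strand for Psmb6. Capitals mark a match to TGACNNNGC, the core of the antioxidant response element, to which factors such as Nfe2l1 and Nfe2l2 bind.
Psme1: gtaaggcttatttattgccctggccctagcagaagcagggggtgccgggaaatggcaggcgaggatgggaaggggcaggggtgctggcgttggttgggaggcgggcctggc
Psme2: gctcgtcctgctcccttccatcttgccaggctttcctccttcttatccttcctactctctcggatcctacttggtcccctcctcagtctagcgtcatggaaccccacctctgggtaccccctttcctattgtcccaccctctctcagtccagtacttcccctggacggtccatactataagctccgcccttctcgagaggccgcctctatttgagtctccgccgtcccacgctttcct
Psmb5: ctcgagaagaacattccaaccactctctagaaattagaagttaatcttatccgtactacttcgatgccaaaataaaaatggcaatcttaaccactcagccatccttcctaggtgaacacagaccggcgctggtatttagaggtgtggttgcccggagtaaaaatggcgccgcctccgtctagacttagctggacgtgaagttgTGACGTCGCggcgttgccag
Psmb6: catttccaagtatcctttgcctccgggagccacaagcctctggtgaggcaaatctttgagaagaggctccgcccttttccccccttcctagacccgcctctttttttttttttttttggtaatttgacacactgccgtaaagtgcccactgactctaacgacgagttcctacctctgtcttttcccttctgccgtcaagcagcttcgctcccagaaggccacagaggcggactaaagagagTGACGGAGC

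The letters of 4 core motifs were searched on both strands of the 250 bases before each start. TGACNNNGC was found for 5 of 37 members, Psmb5, Psmb6, Psmc6, Psmd9 and Psmd12, and for 11.5% of 27025 genes in the table. It ran from 47 to 39 bases before the start in Psmb5 and from 9 to 1 bases before it in Psmb6. GAAA followed by any 2 bases and GAAA, the core of the interferon-stimulated response element, was found for 3 members, Psmb3, Psmd4 and Psmd9, and for 3.46% of all genes. TTCNNNGAA, the core of the gamma-activated site, was found for Psmg1 and for 8.13% of all genes, and among the immunoproteasome subunits for Psmb8. CCAAT was found for 13 members and for 37.5% of all genes. Matches of different motifs did not overlap in any member. None of these letters was in the windows of Psme1 and Psme2. The core of the interferon-stimulated response element was also in none of the windows of the 3 immunoproteasome subunits. For Psmb8 and Psmb9 these windows lie inside the annotated gene, and the sequence before its furthest annotated start was not searched. Psmb3, Psmd4 and Psmd9, which have this core, had log2 fold changes of 0.15, 0.21 and 0.06. Any part of these motifs in the differences between the genotypes was not tested.

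The alpha ring of the 20S core forms the gate. Its 7 genes, Psma1 to Psma7, had a median log2 fold change of 0.07 and ranged from −0.04 for Psma3 to 0.21 for Psma1. Psma1 had 2086 and 2290 normalized counts in ctrl against 2578 and 2473 in Zfp276cko cultures, and with Psma6 it was one of 2 alpha genes for which the Zfp276cko pair lay above the ctrl pair. The other 5 overlapped, and 26.8% of all tested genes lay above in this way. The smallest adjusted p of the ring was 0.397.

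The 7 beta genes, Psmb1 to Psmb7, had a median of 0.03 and ranged from −0.04 to 0.15. Psmb1 was lower in both Zfp276cko libraries, but by little: it had 4322 and 4274 normalized counts in ctrl against 4185 and 4180 in Zfp276cko cultures. The other 6 beta genes overlapped between the genotypes.

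The 6 ATPases of the 19S base, Psmc1 to Psmc6, which unfold the substrate, showed the narrowest range of the subunit groups. Their log2 fold changes lay between −0.01 and 0.12 with a median of 0.02, all 6 overlapped between the genotypes, and all 6 intervals lay within −0.6 to 0.6. The base also holds the scaffold subunits Psmd1 and Psmd2 and the ubiquitin receptor Psmd4, with values of 0.10, 0.02 and 0.21. Psmd2 was the most counted member, with 8443 and 9733 normalized counts in ctrl against 9596 and 8814 in Zfp276cko cultures.

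The 8 lid genes spread further, from −0.15 for Psmd6 to 0.28 for Psmd8, with a median of 0.11. Psmd8 had 3280 and 3724 normalized counts in ctrl against 4349 and 4156 in Zfp276cko cultures (95% interval −0.02 to 0.58, adjusted p = 0.342 from edgeR). Psmd7, which forms a pair with the deubiquitinase of the lid, had 2771 and 3118 in ctrl against 3561 and 3555 in Zfp276cko cultures (log2 fold change 0.27, adjusted p = 0.330). These genes and Psmd11, 3 of 8, lay above both ctrl libraries in both Zfp276cko libraries, beside 26.8% of all tested genes. Psmd6 had 2790 and 2973 normalized counts in ctrl against 2667 and 2522 in Zfp276cko cultures, and Psmd13 had 2388 and 2508 in ctrl against 2362 and 2265 in Zfp276cko cultures. Psmd6 and Psmd13, 2 of 8, thus lay below both ctrl libraries, beside 23.7% of all tested genes. Psmd3, Psmd12 and Psmd14, the deubiquitinase, overlapped. None of the 8 was called by either tool.

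**Figure D3:**
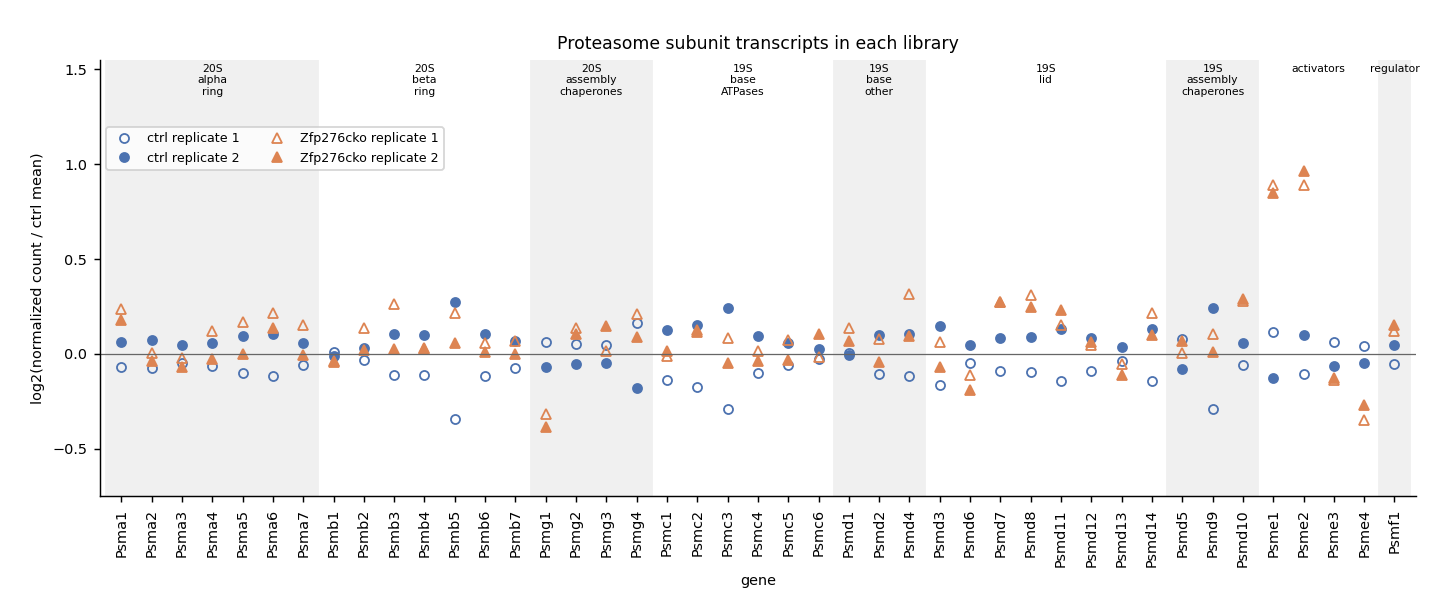
Normalized count of each member relative to its ctrl mean, on a log2 scale (vertical axis), for 43 tested members ordered by role, with 1 point per library and Psma8 left out. Psme1 and Psme2 are the genes with both Zfp276cko libraries (triangles) well above 0, Psmg1 and Psme4 have them at about −0.3 to −0.4, and the ctrl replicates (circles) lie furthest apart for Psmb5, Psmc3 and Psmd9.

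Assembly of the proteasome needs chaperones that leave the finished particle. Psmg1 to Psmg4 guide the alpha ring, and Psmd5, Psmd9 and Psmd10 guide the base. Psmg1 was the member with the lowest log2 fold change, −0.35 (SE 0.15, 95% interval −0.75 to 0.05, adjusted p = 0.362 from edgeR), and had 430 and 393 normalized counts in ctrl against 330 and 314 in Zfp276cko cultures. Psmg2, with which it forms a pair, had 450 and 419 in ctrl against 477 and 467 in Zfp276cko cultures, and its log2 fold change was 0.12 (95% interval −0.24 to 0.48). The members of this pair therefore lay on opposite sides of the ctrl libraries, and the difference between them was not tested. Psmg3 and Psmg4, the other pair, had 0.09 and 0.15 with overlapping libraries, and Psmg4 had −0.02 without ctrl replicate 2.

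Psmd10, also known as gankyrin, had 411 and 446 normalized counts in ctrl against 519 and 524 in Zfp276cko cultures (log2 fold change 0.28, 95% interval −0.07 to 0.64, adjusted p = 0.395 from edgeR). Psmd5 and Psmd9 had 0.04 and 0.06, and their libraries overlapped. The 7 chaperones had lower levels than most subunits, at a mean of 81.1 to 493 normalized counts per kilobase over the 4 libraries, while the core ranged from 686 to 2431 and the regulatory particle from 397 to 2265. Only Psmd11 of the particle lay within the range of the chaperones, under Psmg4. With exons of the basic transcript set, the chaperones ranged from 266 to 493, the core from 939 to 4718 and the regulatory particle from 855 to 3089.

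Psma8 and Psmb11 are variants of core subunits that belong to the testis and the thymus. Psmb11 had 1, 3, 2 and 1 counts in the 4 libraries and was not tested. Psma8 had raw counts of 6 and 2 in ctrl against 16 and 19 in Zfp276cko cultures and passed the filter on low counts only through the latter. Its fitted log2 fold change of 1.70 became 2.71 when ctrl replicate 1 was left out and 1.09 when ctrl replicate 2 was, so that its size is not set by these data. Psma8 is one of the 12 members above both ctrl libraries and of the 3 higher by p alone. With 3 counts taken as the floor, 1 ctrl library was under it, and the mean of 15.4 normalized counts in Zfp276cko cultures was below the 20 needed for a call.

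Levels were compared between genes per kilobase of exon, since longer transcripts give more reads. Within the 20S core, whose subunits are present in equal numbers in the particle, the transcript levels were unequal. Psma3 was lowest with either set of exons, at 922, 985, 940 and 909 normalized counts per kilobase in ctrl replicates 1 and 2 and Zfp276cko replicates 1 and 2 with the basic set. Psma2 was next with the basic set, at 1093 to 1210. Of the windows of 101 bases, 20.7% of those of Psma3 but 0.925% of those of Psma2 occur in another gene. Levels were not adjusted for such windows, and their part in the rank of Psma3 was not tested. Psmb6 was highest with the basic set, at 4312, 5019, 4847 and 4694, and was separated from Psmb2, the next, in every library. With exons of all transcripts Psma6 was highest, at 2109 to 2648, and overlapped with Psmb2, at 2096 to 2350. The highest mean was 5.03 times the lowest with the basic set and 3.54 times with all transcripts.

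Within the regulatory particle, Psmd2 was highest and Psmd11 lowest with either set. Psmd2 had 2851, 3287, 3241 and 2977 normalized counts per kilobase with the basic set, and Psmd11 had 722, 874, 888 and 936. Psmd12, the neighbour of Psmd11 in this order, had 842, 949, 926 and 937, and the ranges of these genes overlapped. Psmc1 was next to Psmd2 with the basic set at 2145 to 2570 and did not overlap with it, while Psmc1 and Psmc5 overlapped. With exons of all transcripts Psmc5 was next, at 1965 to 2159, and overlapped with Psmd2, at 2091 to 2410.

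**Figure D4:**
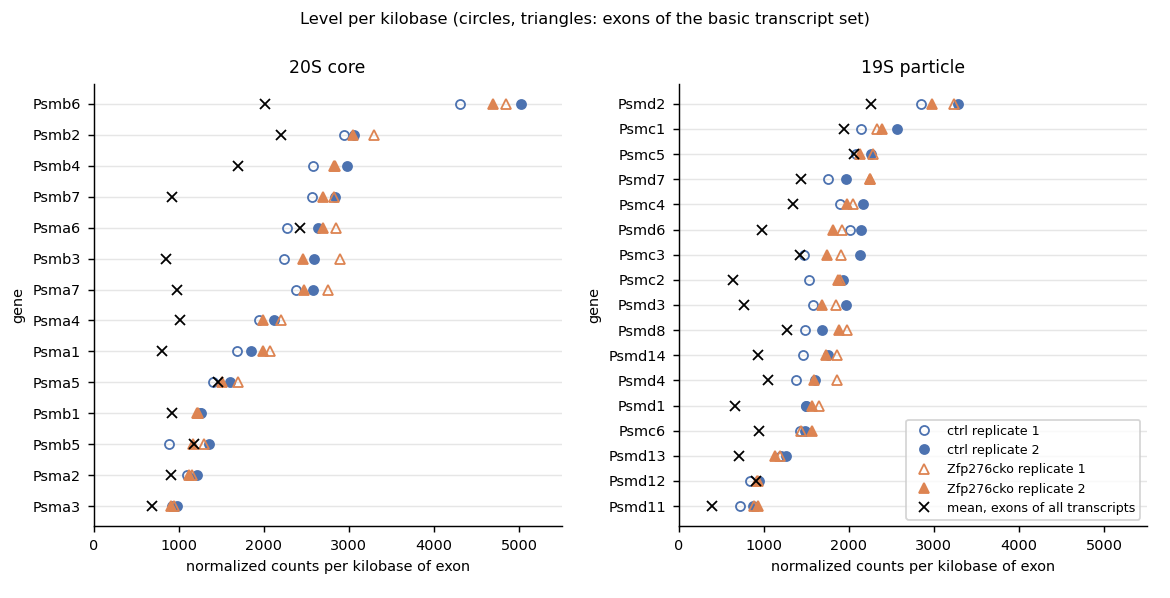
Normalized counts per kilobase of exon (horizontal axis) for the subunits of the 20S core (left) and of the 19S particle (right), 1 circle or triangle per library with the exons of the basic transcript set and a cross for the mean with the exons of all transcripts. Psmb6 and Psma3 end the core and Psmd2 and Psmd11 the particle with the basic set. These ends lie further apart than the libraries of any gene shown, while some neighbouring genes overlap.

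For most groups of subunits the ctrl libraries differed from each other in a shared direction. Ctrl replicate 2 was above ctrl replicate 1 for 7 of 7 alpha genes, 6 of 7 beta genes, 6 of 6 ATPases and 8 of 8 lid genes, with medians of 0.13, 0.21, 0.23 and 0.18 on the log2 scale. For the Psmg genes it was above in 0 of 4, with a median of −0.12, and for the activators in 1 of 4, with a median of −0.11. Over all tested genes it was above for 7953 of 15766, with a median of 0.0046. The tested members furthest apart were Psmb5 with 0.62, Psmc3 with 0.53 and Psmd9 with 0.53, while Psma8, at few counts, had −1.66. Psmc3, for example, had 3022 and 4361 normalized counts in ctrl against 3911 and 3569 in Zfp276cko cultures. Between the Zfp276cko replicates the 44 tested members differed by −0.24 to 0.17. The median over the members moved to −0.0054 when ctrl replicate 1 was left out and to 0.13 when ctrl replicate 2 was, so that the small positive median rests on ctrl replicate 1. This library is also the one with the high fibroblast markers. All 5 neuron markers were lower in it than in ctrl replicate 2. They summed to 49.4 CPM there, against 173 CPM in ctrl replicate 2 and 123 to 129 CPM in Zfp276cko cultures. The part of either group of markers in the proteasome values was not tested.

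Other genes of the pathway, 28 in all, were taken from a list of further subunits and partners, regulators, ubiquitin shuttles, ubiquitin genes and the segregase Vcp with its cofactors. EdgeR and DESeq2 each called 0 of the 28, and 4 reached 0.05 or less by the unadjusted p of edgeR, beside 8.33% of all tested genes in the higher and 7.3% in the lower direction. Their median log2 fold change was 0.02, and the Zfp276cko pair lay above the ctrl pair for 9 and below it for 9, beside 26.8% and 23.7% of all tested genes. Nfe2l1, the factor that raises proteasome genes when proteasome activity is short, had 6341 and 5092 normalized counts in ctrl against 5411 and 5525 in Zfp276cko cultures, and the genotypes overlapped (log2 fold change −0.06, 95% interval −0.45 to 0.32). Adrm1, a ubiquitin receptor of the regulatory particle, had 1215 and 1478 in ctrl against 1486 and 1432 in Zfp276cko cultures. Pomp, the maturation factor of the core, had 2395 and 2698 normalized counts in ctrl against 2034 and 2144 in Zfp276cko cultures (log2 fold change −0.29, unadjusted p = 0.0476, adjusted p = 0.315 from edgeR).

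The smallest value in this list came from a ubiquitin gene. Rps27a, which encodes ubiquitin fused to a ribosomal protein, had 8898 and 7579 in ctrl against 6052 and 6048 in Zfp276cko cultures, which gave −0.45 on the log2 scale (SE 0.12, adjusted p = 0.235 from edgeR). The Zfp276cko libraries lay below both ctrl libraries.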

How the data were processed

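Stranded mRNA libraries were sequenced as single reads of 101 bases. The authors mapped the reads to mm10 with STAR and deposited raw, whole-number counts of uniquely mapped reads per Ensembl gene, listed by symbol. The study's methods name HTSeq for this step and the submitters' processing notes name featureCounts 1.5.1, and the strand setting of the counting is not given in the sources used here. Of the 45 members, 9 share exon bases with a gene on the opposite strand, which for Psmb7, Psmd9 and Psmd13 exceed 10% of the exon bases.

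Counts were analysed with edgeR 4.0.16 in R 4.3.3 (filterByExpr, TMM, quasi-likelihood test, Benjamini-Hochberg adjustment over 15766 genes, which hold 99.9% of the counts), with genotype as the only term. Standard errors and 95% intervals come from this fit. DESeq2 1.42.0, the tool of the study, was an alternative. The thresholds are those of the study. Counted reads were 21068322 to 26599809 per library, and 2 preparations per genotype limit the precision: the smallest two-sided p of an exact permutation test is 0.333. Exons, positions and windows came from GENCODE M21 (mm10), and windows were compared on the sense strand of annotated transcripts only. Paaf1 and Itgam, the one absent under that symbol and the other with 2 entries, were left out of their lists. The analysis was also run on simulated counts in which both genotypes had the same spread, unlike in these data. That run therefore does not cover the unequal spread of ctrl and Zfp276cko.

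Genes named with values were the 5 tested members with the largest and the 5 with the smallest log2 fold change, the catalytic subunits, Psme1 to Psme4, Psmf1, Psmg1 to Psmg4, members called by either tool, those with the highest or lowest level per kilobase, the immunoproteasome subunits, and Nfe2l1, Pomp, Adrm1 and the extremes of the list of other genes, of which some are not reported here. Further genes were named after their values were seen. The members, lists and motifs were chosen with earlier results of these data known.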

Additional observations from a re-analysis of the deposited data

How the results depend on the processing

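The count of members called higher, 0, was 2 with DESeq2, 2 with an unadjusted p and the same thresholds, and between 0 and 2 when each library was left out in turn, and these were Psme1 and Psme2. The count called lower was 0 under every alternative. Of the other pathway genes with the immunoproteasome subunits, 0 were called higher, against 3 with DESeq2, 4 with an unadjusted p and 0 to 6 with a library left out, and 0 lower, against 0 to 1 with a library left out. Leaving out a ctrl library gives such calls throughout the data, 1689 higher and 952 lower without replicate 1, because the spread then comes from the Zfp276cko pair. Signs with 1 library left out were followed only for genes chosen to be named, and those of the remaining members were not checked. Among the genes followed, the sign changed for Psmb5 (−0.14 to 0.47), Psmb6 (−0.0721 to 0.13), Psmb7 (−0.0341 to 0.0915), Psmg4 (−0.0248 to 0.33), Nfe2l1 (−0.23 to 0.10) and Adrm1 (−0.0174 to 0.25). The median of the members lay between −0.0054 and 0.13. Scaling by DESeq2 size factors, testing genes of any count above 0, requiring 10 counts per library, the other setting of edgeR's legacy option and adjusted p without further thresholds changed no call of a member. The level of the core in ctrl, a median of 975 normalized counts per kilobase, was 2222 with the basic transcript set, an alternative chosen after the data were seen.

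Same-numbered replicates are separate preparations, and their deviations were uncorrelated (0.0067 over 14324 genes). With the replicate block, 0 members were called, their median was 0.08, and Psme1 and Psme2 had 0.88 and 0.93 (adjusted p = 0.185 and 0.174 from edgeR), so that no call changed.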
